A study of Mus musculus with 6 samples.

Results

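Of 8 transcription regulators of undifferentiated spermatogonia, 6 had lower RNA levels in CDH1+/THY1+ than in CDH1-/THY1+ mouse germline stem cells: Neurog3, Zbtb16, Glis3, Foxo1, Taf4b and Bmi1, by 1.73-fold (Bmi1) to 4.01-fold (Neurog3). Sall4 did not pass the test, and Utf1 was not analysed here. The 8 genes were Zbtb16, Sall4, Foxo1, Taf4b, Neurog3, Utf1, Glis3 and Bmi1, chosen by name for their known roles in these cells. They were chosen with earlier results of these data known. The genes were found by matching the Ensembl identifiers of the authors' deposited table to GENCODE M21 symbols, which gave 7 of its 22432 rows.

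Male germline stem cells, grown from the testis on DR4 fibroblast feeders in medium with GDNF and FGF, were compared after sorting by the adhesion protein CDH1 (E-cadherin) among cells positive for THY1, a surface protein of spermatogonial stem cells. The design had 6 samples, 3 labelled CDH1+/THY1+ and 3 labelled CDH1-/THY1+, at passage 6 to 8. Each population came from the cultures RP7 (age 8 weeks) and RP5 (19 days), both of the strain OCT4/GFP; Dox-OCT4, and from WT1 (5 weeks) of the strain C57BL/6. The growth medium that both populations shared lists no doxycycline, and the labels do not say whether a culture came from 1 animal or several. The design compares RNA levels of THY1+ cells that do and do not carry CDH1 on their surface.

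Undifferentiated spermatogonia comprise the stem cells of the male germline and the progenitors that descend from them, joined by cytoplasmic bridges. Stem cell maintenance needs transcriptional repressors such as PLZF, the product of Zbtb16, together with forkhead factors held in check by PI3K-AKT signalling. Progenitors that are poised to differentiate switch on Neurog3, and chromatin regulators such as the Polycomb protein BMI1 keep cell cycle inhibitors silent.

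Promoter windows, 250 bases before to 50 bases after the start of the gene, are given for 4 of the called regulators. Their sequence can thus be read beside their fold changes. The sequences are RefSeq's, in build GRCm38.p6, at chr10:62132840-62133139 (plus strand) for Neurog3, chr19:28680028-28680327 (minus strand) for Glis3, chr3:52268087-52268386 (plus strand) for Foxo1 and chr2:18676768-18677067 (plus strand) for Bmi1, and are written 5′ to 3′. Capitals mark GGGCGG (the GC box, a site of SP and KLF factors), CCAAT (a site of NF-Y) and CACGTG (the E-box of MYC-type factors) on either strand.
Neurog3: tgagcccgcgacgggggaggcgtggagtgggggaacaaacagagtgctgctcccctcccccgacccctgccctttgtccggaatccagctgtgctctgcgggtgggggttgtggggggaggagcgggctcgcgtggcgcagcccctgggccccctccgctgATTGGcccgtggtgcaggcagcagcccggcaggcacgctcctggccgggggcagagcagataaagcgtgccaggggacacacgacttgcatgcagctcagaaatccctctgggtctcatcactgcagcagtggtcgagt
Glis3: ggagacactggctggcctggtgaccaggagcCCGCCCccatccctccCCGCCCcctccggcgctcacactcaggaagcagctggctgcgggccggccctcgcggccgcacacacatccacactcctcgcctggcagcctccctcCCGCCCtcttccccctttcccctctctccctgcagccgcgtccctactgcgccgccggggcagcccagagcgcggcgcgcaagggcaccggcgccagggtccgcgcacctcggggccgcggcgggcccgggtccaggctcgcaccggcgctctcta
Foxo1: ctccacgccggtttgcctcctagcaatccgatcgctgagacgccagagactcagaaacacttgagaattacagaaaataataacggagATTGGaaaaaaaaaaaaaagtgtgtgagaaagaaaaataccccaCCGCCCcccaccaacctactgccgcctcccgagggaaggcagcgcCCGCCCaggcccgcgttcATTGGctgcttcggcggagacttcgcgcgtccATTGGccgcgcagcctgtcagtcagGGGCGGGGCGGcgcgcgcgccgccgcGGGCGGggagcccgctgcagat
Bmi1: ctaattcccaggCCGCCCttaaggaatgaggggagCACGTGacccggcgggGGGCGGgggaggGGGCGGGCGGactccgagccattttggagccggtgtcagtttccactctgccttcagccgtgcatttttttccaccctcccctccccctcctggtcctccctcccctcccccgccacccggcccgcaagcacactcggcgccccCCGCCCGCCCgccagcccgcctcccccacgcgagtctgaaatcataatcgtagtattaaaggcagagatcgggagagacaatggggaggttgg

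The 4 windows shared none of these motifs. GGGCGG was found 6 times in the window of Bmi1, 5 times in Foxo1 and 3 times in Glis3, with overlapping matches each counted, and not in Neurog3. Of all 32841 RefSeq windows of this length 35.7% hold it. CCAAT was found 3 times in Foxo1 and 1 time in Neurog3 (37.4% of all windows), and CACGTG 1 time in Bmi1 (7.15%). Neither TATAAA (13.6% of all windows) nor the forkhead motif GTAAACA (3.65%), also searched on both strands, was found in the 4 windows. CG dinucleotides numbered 32 in Glis3, 31 in Foxo1, 23 in Bmi1 and 19 in Neurog3, against a median of 7 over all windows. The share of all windows with fewer was 90.5% for Glis3, 89.4% for Foxo1, 78.5% for Bmi1 and 71.9% for Neurog3. A match of letters describes the window and does not show that a factor binds there.

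The values come from the authors' deposited table of their comparison, which gives 1 mean count over all 6 libraries and 1 fold change per gene. It gives no value per sample, so the spread within each population and the number of libraries that show a direction are unknown. Fold changes are of CDH1+/THY1+ over CDH1-/THY1+ cells, a direction given by the table's name. Cdh1 was not analysed here, so no value checks it. Log2 fold changes are written with the authors' standard error after ±. A gene is called higher or lower, or said to rise or fall, where the adjusted p-value of the authors' DESeq2 test was under 0.05. Log2 fold changes of the rows analysed ran from -2.94 to 2.14, and their standard errors stayed at or under 0.64.

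Of the 7 regulators with values, 6 were called lower and 0 higher by DESeq2 in the authors' deposited table, and the counts at an unadjusted p under 0.05 were also 6 and 0. The background in the same comparison was 33.5% of 19211 tested genes called, 16.4% lower and 17.1% higher. The median log2 fold change of the 7 regulators was -1.48, against 0.01 for all genes tested. A fall of at least 2-fold was seen for 5 of the 7 regulators, against 6.54% of all genes. The regulators were chosen with earlier results of these data known, so these contrasts with all genes describe the set and do not test it. In total RNA of sorted cultures, fewer cells of a type and less RNA per cell cannot be told apart.

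**Figure D1:**
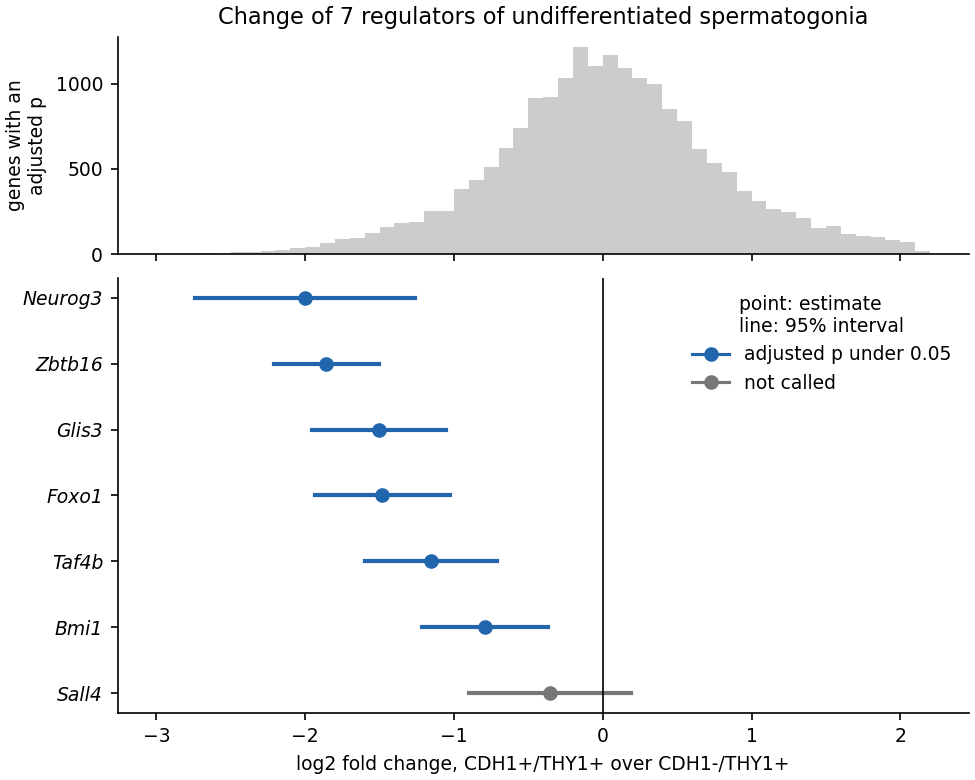
Upper panel, the distribution of log2 fold changes (CDH1+/THY1+ over CDH1-/THY1+) over the 19211 genes with an adjusted p-value. Lower panel, the 7 regulators on the same axis, with points for the authors' estimates and lines for 95% intervals. The intervals of the 6 called genes lie below 0, and that of Sall4 runs from -0.90 to 0.19.

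Among the zinc finger factors, Zbtb16 fell most in relation to its error. It encodes PLZF, a BTB-domain repressor that germline stem cells need to persist, and lies on chromosome 9 (48654297 to 48836222, minus strand, GRCm38). Its log2 fold change in the authors' deposited table was -1.86 ± 0.18 (adjusted p = 7.29e-23), which is 3.62-fold lower with a 95% interval of 2.84 to 4.62. Only 0.989% of genes tested had a lower fold change. Its mean count of 2966 over all libraries in the authors' deposited table was the highest of the 7 regulators.

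The partners of PLZF moved in both directions. Of 15 other ZBTB genes and corepressors, 5 were lower and 4 higher, with a median log2 fold change of -0.13. Over all genes tested, 16.4% were lower and 17.1% higher. The corepressor gene Sin3a fell by 0.67 ± 0.16 on the log2 scale in the authors' deposited table (adjusted p = 0.000166), and Cul3, the ubiquitin ligase scaffold that PLZF recruits, fell by 0.49 ± 0.12 (0.000266). Ncor1, a nuclear receptor corepressor gene, was higher at 0.59 ± 0.15 (adjusted p = 0.000369) in the authors' deposited table, as were Zbtb7b at 0.72 ± 0.18 and Zbtb7a at 0.59 ± 0.16 (0.00037 and 0.00142). Zbtb32, which encodes a binding partner of PLZF with the same domains, had -0.63 ± 0.26 in the authors' deposited table, at the edge of the threshold (adjusted p = 0.0492).

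Sall4, a zinc finger factor that recruits the NuRD deacetylase complex, was the regulator without a call. It lies on chromosome 2 (168748332 to 168767943, minus strand). In the authors' deposited table its log2 fold change was -0.36 ± 0.28 (adjusted p = 0.335). The 95% interval of -0.90 to 0.19 leaves out a fall of 2-fold. The interval overlapped those of Bmi1 and Taf4b, and lay above those of Foxo1, Glis3, Zbtb16 and Neurog3. Sall4 had nearly the mean count of Zbtb16, 2897 in the authors' deposited table, but a larger standard error.

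The paralogs of Sall4 split. In the authors' deposited table Sall2 was higher at 1.19 ± 0.31 (adjusted p = 0.000732), Sall3 was lower at -1.16 ± 0.32 (0.00164), and Sall1 had 0.58 ± 0.32 without a call (0.15). With the NuRD subunits, 5 of 16 genes were higher and 4 lower, against 17.1% and 16.4% of all genes tested. The median log2 fold change was 0.22. The NuRD subunit genes Mta3 and Mta1 rose to 0.96 ± 0.23 and 0.48 ± 0.14 in the authors' deposited table (adjusted p = 0.000304 and 0.00215), and Gatad2b and Hdac2 fell by 0.52 ± 0.16 and 0.40 ± 0.14 (0.0041 and 0.0126).

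Glis3, a Krüppel-like zinc finger factor needed after birth to form the spermatogonial stem cell pool, lies on chromosome 19 (28258851 to 28680077, minus strand). It fell by 1.50 ± 0.23 on the log2 scale in the authors' deposited table (adjusted p = 1.92e-09). This is 2.83-fold lower, with a 95% interval of 2.07 to 3.87. Its paralogs moved apart: Glis1 was lower still, at -1.97 ± 0.30 (adjusted p = 1.51e-09), and Glis2 was higher at 0.65 ± 0.17 (0.000526), in the authors' deposited table. Glis1 had a mean count of 73.2 and Glis3 of 1818 in the authors' deposited table.

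In the wider GLIS, GLI and ZIC family with 2 cofactors, Sufu and Wwtr1, 3 of 8 genes with values were lower and 4 higher. The shares of all genes tested were 16.4% and 17.1%. The median of the family was 0.36. Gli1, a target and effector of Hedgehog signalling, rose to 1.85 ± 0.36 (adjusted p = 3.04e-06) and Wwtr1, which encodes the coactivator TAZ, to 0.83 ± 0.18 (2.04e-05) in the authors' deposited table. Zic1 and Gli3 fell by 1.32 ± 0.26 and 0.59 ± 0.19 on the log2 scale in the authors' deposited table (adjusted p = 4.54e-06 and 0.0071).

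**Figure D2:**
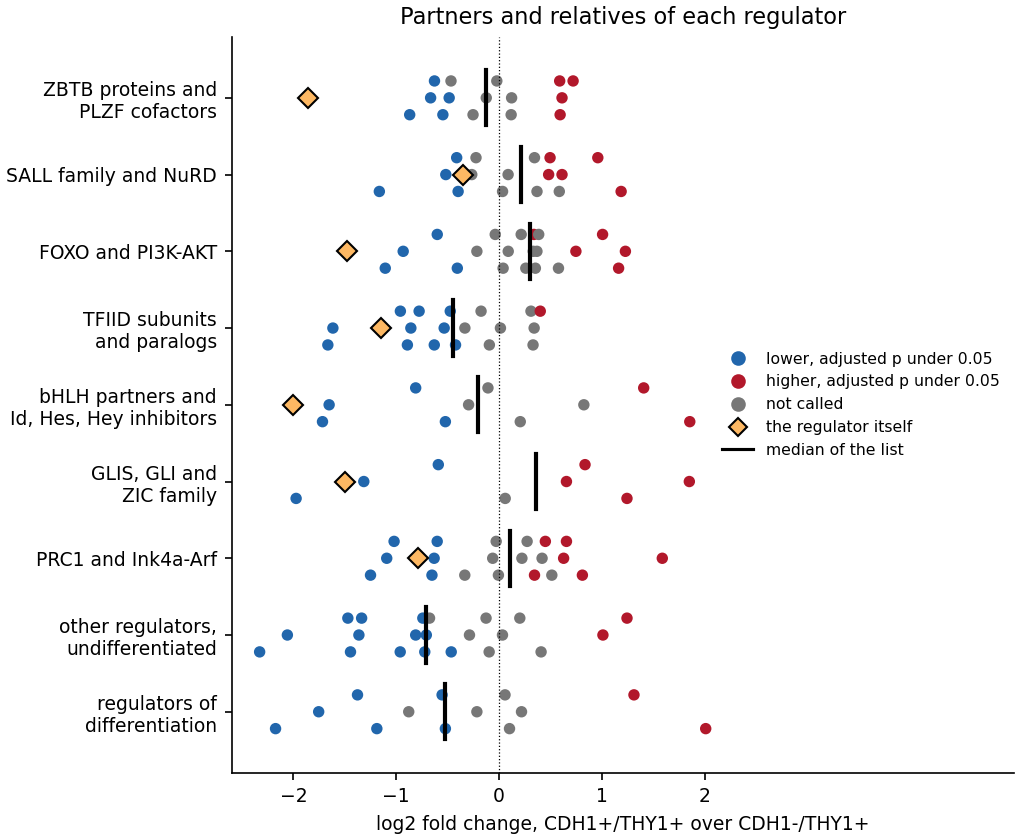
Log2 fold changes (horizontal axis) of the partners and relatives of each regulator, 1 point per gene with an adjusted p-value, coloured by call. Black bars are list medians and diamonds the regulators. Zbtb16, Neurog3, Glis3 and Foxo1 lie far to the left of the medians of their relatives, which run from -0.20 to 0.36, and the TFIID list has its median at -0.45.

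Foxo1 encodes a forkhead factor that PI3K-AKT signalling excludes from the nucleus and that stem cell maintenance requires. It lies on chromosome 3 (52268336 to 52353221, plus strand). In the authors' deposited table Foxo1 fell by 1.48 ± 0.23 on the log2 scale (adjusted p = 3.62e-09), or 2.79-fold with a 95% interval of 2.04 to 3.82. The 3 other FOXO genes did not follow it as a group. In the authors' deposited table Foxo3 had -0.22 ± 0.23 without a call (adjusted p = 0.503), Foxo4 rose to 0.75 ± 0.20 (0.00121) and Foxo6 fell to -1.11 ± 0.28 (0.000412).

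Of 20 genes of the FOXO family and the PI3K-AKT pathway with values, 5 were higher and 4 lower, with a median of 0.29. Among all genes tested, 17.1% were higher and 16.4% lower. Among the kinases, Sgk1, a relative of AKT that also phosphorylates FOXO proteins, had 1.23 ± 0.16 in the authors' deposited table (adjusted p = 3.3e-12), and Akt2 fell by 0.41 ± 0.13 (0.00963). The PI3K regulatory subunit gene Pik3r2 fell by 0.60 ± 0.12 on the log2 scale in the authors' deposited table (adjusted p = 1.16e-05). Cdkn1b and Bcl2l11, a cell cycle inhibitor and a cell death gene known as FOXO targets, were higher at 1.16 ± 0.34 and 1.00 ± 0.28 in the authors' deposited table (adjusted p = 0.00283 and 0.00149). Txnip of the same list was higher at 0.34 ± 0.12 in the authors' deposited table (adjusted p = 0.0183). Sesn1 and Sesn3 had -0.04 ± 0.26 and 0.04 ± 0.23 there without a call (adjusted p = 0.93 and 0.92). Cited2 and Irs2, also not called, had 0.33 ± 0.21 and 0.58 ± 0.25 (adjusted p = 0.214 and 0.0532). Akt1 had 0.21 ± 0.15 in the authors' deposited table and no call (adjusted p = 0.283).

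Neurog3, a basic helix-loop-helix factor of progenitor-type undifferentiated spermatogonia, had the lowest fold change and the lowest level of the 7 regulators. It lies on chromosome 10 (62133090 to 62134763, plus strand). Its mean count was 107 in the authors' deposited table, where the other regulators had 1295 to 2966. The log2 fold change of Neurog3 in the authors' deposited table was -2.00 ± 0.38 (adjusted p = 1.46e-06), or 4.01-fold lower with a 95% interval of 2.40 to 6.69. Only 0.578% of genes tested had a lower fold change.

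The whole of Neurog3 lies inside Fam241b, a gene on the opposite strand (62107655 to 62143920), and 273 of its exon bases overlap exons of that gene. Fam241b had a mean count of 362 and fell by 1.04 ± 0.16 on the log2 scale in the authors' deposited table (adjusted p = 5.08e-09). Whether the counting used strand is not given in the sources used here. Without it, reads of the shared bases cannot be told apart, and the part of Fam241b in the value of Neurog3 was not tested.

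Factors that pair with NEUROG3 or oppose it changed in both directions, 4 lower and 2 higher of 10 with an adjusted p-value. Their median was -0.20, and 16.4% of all genes tested were lower and 17.1% higher. Of the E-proteins, its dimer partners, Tcf3 fell by 0.52 ± 0.13 (adjusted p = 0.0003), Tcf4 rose to 1.40 ± 0.37 (0.00085) and Tcf12 had -0.11 ± 0.22 without a call (0.755), in the authors' deposited table. Id2, an inhibitor that sequesters E-proteins, rose to 1.85 ± 0.35 in the authors' deposited table (adjusted p = 2.31e-06), while the stem cell marker Id4 of the same family had -0.81 ± 0.33 (0.0434). The Notch-responsive repressor genes Hes5 and Hey1 fell by 1.72 ± 0.36 and 1.65 ± 0.27 on the log2 scale in the authors' deposited table (adjusted p = 2.08e-05 and 2.44e-08). Their mean counts there were 49.4 and 156. Hes1, with a mean count of 852, had -0.30 ± 0.18 without a call in the authors' deposited table (adjusted p = 0.184). Neurog1 and Neurog2 were not analysed here.

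Taf4b encodes a gonad-enriched subunit of TFIID, the general factor that recognises core promoters, and lies on chromosome 18 (14783245 to 14900359, plus strand). In the authors' deposited table it fell by 1.15 ± 0.23 on the log2 scale (adjusted p = 4.39e-06), which is 2.22-fold lower with a 95% interval of 1.63 to 3.02. Its ubiquitous paralog Taf4 was not called in the authors' deposited table, with -0.18 ± 0.16 (adjusted p = 0.439). The 95% interval of Taf4, -0.50 to 0.15, ended above that of Taf4b, which ended at -0.71.

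Other TFIID genes were lower with it. Of 18 genes for TFIID subunits and their paralogs, 10 were lower and 1 higher, against 16.4% and 17.1% of all genes tested. The median log2 fold change was -0.45. The largest falls in the authors' deposited table were those of the paralogs Taf9b, at -1.66 ± 0.20 (adjusted p = 1.7e-15), and Taf7l, a germ cell form of Taf7, at -1.62 ± 0.22 (3.58e-12). In the authors' deposited table Taf7 itself fell by 0.96 ± 0.14 (adjusted p = 5.49e-11). The 1 higher gene was Taf8, at 0.40 ± 0.17 in the authors' deposited table, at the edge of the threshold (adjusted p = 0.0456).

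Bmi1 encodes a RING-finger subunit of the Polycomb repressive complex PRC1 and is known for silencing the Ink4a-Arf locus, Cdkn2a. It lies on chromosome 2 (18677018 to 18686629, plus strand). It showed the smallest called fall of the 7 regulators, -0.79 ± 0.22 in the authors' deposited table (adjusted p = 0.00147). This is 1.73-fold lower, with a 95% interval of 1.29 to 2.32. Commd3, a gene that ends 786 bases before Bmi1 begins on the same strand, was called in the other direction, at 0.44 ± 0.18 in the authors' deposited table (adjusted p = 0.0413).

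The closest paralog of Bmi1, Pcgf2, was not called in the authors' deposited table, with 0.51 ± 0.24 (adjusted p = 0.08), and the unadjusted 95% interval of its log2 fold change, 0.05 to 0.98, did not overlap that of Bmi1. Cdkn2a and its neighbour Cdkn2b had -0.33 ± 0.36 and -0.03 ± 0.56 without a call in the authors' deposited table (adjusted p = 0.512 and 0.976). Of 20 genes of PRC1 and this locus, 6 were higher and 6 lower, against 17.1% and 16.4% of all genes tested, with a median of 0.11. The chromobox genes, whose proteins read the Polycomb mark, lay at both ends: Cbx7 rose to 1.59 ± 0.25 (adjusted p = 8.09e-09) and Cbx2 fell by 1.25 ± 0.15 (1.7e-14), in the authors' deposited table. Pcgf5 and Cbx8 fell by 1.09 ± 0.17 and 1.02 ± 0.21 on the log2 scale in the authors' deposited table (adjusted p = 1.13e-09 and 7.53e-06), and Rybp and Phc3 rose to 0.81 ± 0.22 and 0.63 ± 0.19 (0.00142 and 0.00407).

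Ordered by log2 fold change in the authors' deposited table, the regulators ran Neurog3, Zbtb16, Glis3, Foxo1, Taf4b, Bmi1 and Sall4. Neurog3 and Zbtb16 differed by 0.15, less than the larger of their standard errors, and Glis3 and Foxo1 by 0.02. The other 4 gaps between neighbours, 0.33 to 0.44, were larger than either standard error, but differences between genes were not tested. Per length of exon sequence the order of levels was another one. Zbtb16 had 561 mean counts per 1000 exon bases, Sall4 523, Bmi1 397, Taf4b 393, Glis3 206, Foxo1 149 and Neurog3 64.0, and the median gene had 31.6. These levels are means over both populations without a spread, so it is unknown whether neighbours such as Bmi1 and Taf4b differ.

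**Figure D3:**
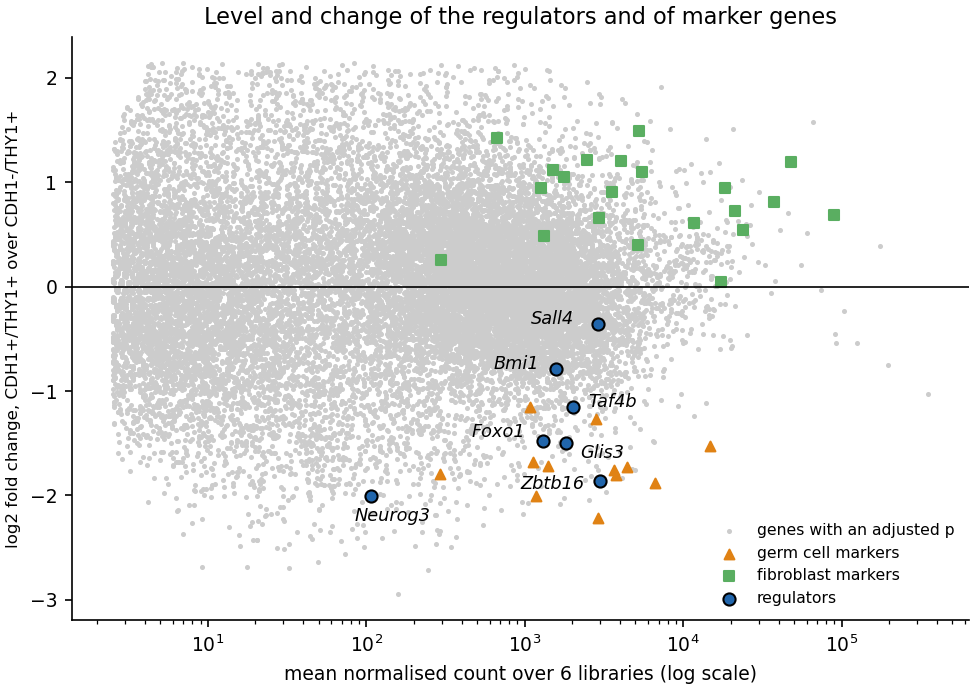
Mean normalised count over the 6 libraries (horizontal, log scale) against log2 fold change, for genes with an adjusted p-value (grey), the 7 regulators (labelled circles), germ cell markers (triangles) and fibroblast markers (squares). All 12 germ cell markers lie below 0 and the 21 fibroblast markers above it. Neurog3, Zbtb16, Glis3 and Foxo1 lie within the range of the germ cell markers, Glis3 and Foxo1 above 10 of the 12.

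Markers of germ cells and of other cells moved in the same comparison. All 12 germ cell marker genes, among them Ddx4 and Dazl, were lower, against 16.4% of all genes tested. They had a median log2 fold change of -1.74 and a range of -2.22 to -1.15 in the authors' deposited table. The marker lists were chosen with earlier results of these data known, so their counts and ranges describe the lists and test nothing. Another list, of 21 other regulators of undifferentiated spermatogonia, was less uniform, with 12 lower and 2 higher. Neurog3, Zbtb16, Glis3 and Foxo1 fell within that range. Of the 12 markers, 2 had a lower fold change than Neurog3, 3 than Zbtb16, and 10 than Glis3 and Foxo1. The estimates for Taf4b, Bmi1 and Sall4 were closer to 0 than those of all 12 markers. That of Taf4b, -1.152, was only just above the highest marker, Dnd1 at -1.155. Of 21 fibroblast markers, the feeder cell type, 8 were higher and 0 lower (0 at an unadjusted p under 0.05), with a median of 0.90. Among all genes tested, 17.1% were higher. The part of these cells in the falls of the 6 regulators was not tested.

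Surface markers of spermatogonia were mixed, with 3 lower and 2 higher of 9. For this and the next marker lists, the shares over all genes tested were 16.4% lower and 17.1% higher. Gfra1 and Ret, the receptor pair for GDNF, fell by 0.99 ± 0.25 and 1.14 ± 0.22 on the log2 scale in the authors' deposited table (adjusted p = 0.000428 and 3.68e-06). Thy1, counted among both the surface and the fibroblast markers, had 0.48 ± 0.18 in the authors' deposited table (adjusted p = 0.0292). The 6 pluripotency genes with values were all called higher, with a median of 1.60. Of 9 Sertoli cell markers 2 were higher, Kitl and Clu, and 0 lower (also 0 at an unadjusted p under 0.05). Dhh and Cldn11 of this list, not called, had mean counts of only 7.07 and 2.59 in the authors' deposited table. Of 5 macrophage markers 3 were higher, Cd68, Ptprc and Mrc1, and 1 lower, H2-Aa. Of the Leydig cell markers Star and Cyp11a1, 0 were called (0 at an unadjusted p under 0.05). Their mean counts in the authors' deposited table were 25.4 and 2.55, so a missing call says little.

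The 2 further lists of regulators leaned downwards as well. Of 21 other regulators of undifferentiated spermatogonia, 12 were lower and 2 higher, against 16.4% and 17.1% of all genes tested. Their median was -0.71. The lowest adjusted p-values in the authors' deposited table belonged to Egr4, an immediate early transcription factor gene (-2.06 ± 0.19, adjusted p = 2.87e-24), and to Sox3 (-2.33 ± 0.29, 1e-13), followed by Tsc22d3 (-1.36 ± 0.20, 2.07e-10). Pou5f1, which encodes OCT4, and Myc were the 2 higher genes, at 1.24 ± 0.36 and 1.01 ± 0.26 in the authors' deposited table (adjusted p = 0.0032 and 0.000548). Of the 6 samples, 4 carry the strain label Dox-OCT4, and the table does not tell reads of a transgene from those of the endogenous gene.

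Of 13 genes listed for differentiation, not all of them regulators, 6 were lower and 2 higher, with a median of -0.52. The shares over all genes tested were 16.4% and 17.1%. Sohlh1, which acts with Sohlh2 at the entry into differentiation, fell by 2.17 ± 0.28 and Sohlh2 by 1.38 ± 0.16 on the log2 scale in the authors' deposited table (adjusted p = 1.19e-12 and 3.14e-16). Dmrt1, a doublesex-related factor of germ and Sertoli cells, fell by 1.75 ± 0.22 (1.3e-13) in the authors' deposited table. Upp1, a uridine phosphorylase gene, and the receptor gene Kit were higher, at 2.01 ± 0.35 and 1.31 ± 0.24 in the authors' deposited table (adjusted p = 1.49e-07 and 7.33e-07). Rarg, a retinoic acid receptor of the same progenitors that express Neurog3, had 0.06 ± 0.24 in the authors' deposited table without a call (adjusted p = 0.885).

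The regulators had large standard errors for their level. Against the 200 genes of nearest mean count, the standard error was larger than that of 95.5% for Sall4, 92.5% for Foxo1, 92% for Taf4b and 90.5% for Bmi1. The values for Glis3, Neurog3 and Zbtb16 were 89.5%, 84% and 75.5%. Genes of the mean count of Sall4 had a median standard error of 0.16, against 0.28 for Sall4 in the authors' deposited table. The median of this percentile was 90.5 for the 7 regulators, 65.2 for the germ cell markers and 94.5 for the fibroblast markers. It was also high for the other regulators of undifferentiated spermatogonia (87), the differentiation list (85) and the pluripotency genes (97.75). Large errors were thus not particular to the 7 regulators. The partner lists ran from 33.5 (TFIID) to 75 (partners and inhibitors of Neurog3).

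**Figure D4:**
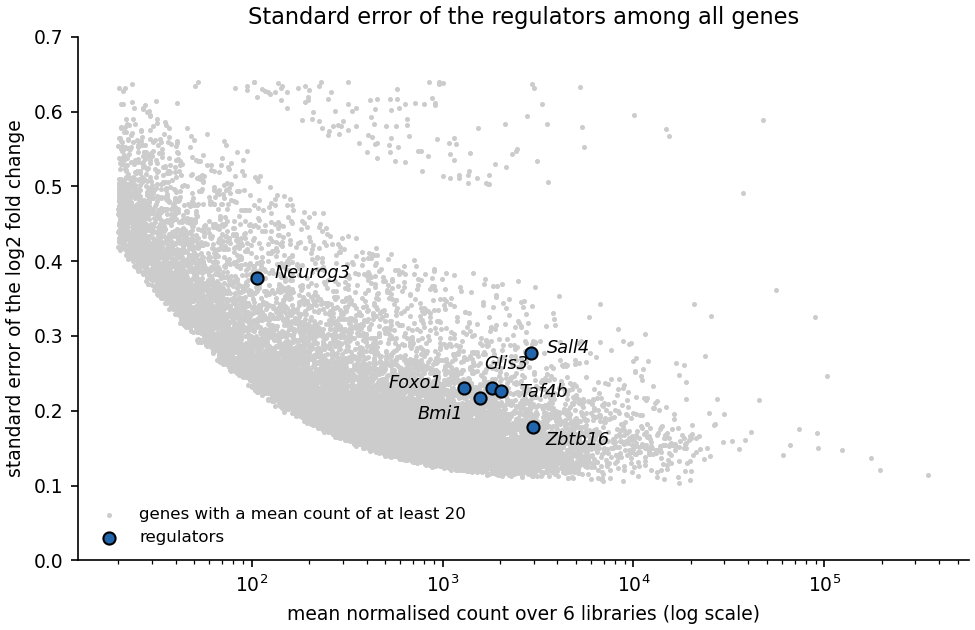
Mean normalised count (horizontal, log scale) against the standard error of the log2 fold change, for all genes with mean counts of 20 or more (grey) and the 7 regulators (labelled circles). Sall4 lies above Zbtb16, which has almost the same mean count, with standard errors of 0.28 and 0.18.

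Among transcripts that overlap the other regulators, those with values had low counts. Gm20402, which overlaps 674 exon bases of Foxo1 on the opposite strand, was not analysed here. Its part in the value of Foxo1 was not tested. AC133172.1, a processed pseudogene inside Taf4b that shares no exon bases with it, was also not analysed here. Gm38034, inside an intron of Foxo1 on the same strand, had a log2 fold change of -1.33 ± 0.43 at a mean count of 40.5 in the authors' deposited table (adjusted p = 0.0077). The intronic transcript 4933413C19Rik of Glis3 had a mean count of 18.2 and -1.16 ± 0.49 in the authors' deposited table, just outside the threshold (adjusted p = 0.0501). Gm14261, which overlaps 526 exon bases of Sall4 on the opposite strand, had a mean count of 2.94 in the authors' deposited table, against 2897 for Sall4.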

How the data were processed

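The submitters' processing notes name build GRCm38.p4, DESeq2 1.12.3 under R 3.3.1, Subread 1.5.0-p3 with its counter featureCounts, TopHat2 2.1.1 and Trimmomatic 0.32. The annotation release, strand setting and model formula are not given in the sources used here. The deposited table holds, per gene, a mean normalised count (a signal: reads scaled by each library's size factor, then averaged over the libraries), a log2 fold change with its standard error on the log2 scale, a Wald score, a p-value and an adjusted p-value. The standard errors of the authors' deposited table never exceeded 0.64 even at mean counts near 1, a property of shrunken estimates, which understate changes of genes with few reads. Depth per sample is unknown.

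Identifiers were matched without version to GENCODE M21 (GRCm38), which gave a symbol for 22317 of 22432 rows. An adjusted p-value was present in 19211 rows. No row had a log2 fold change above 2.14, and counts and medians cover only the rows analysed. The 95% intervals are the fold change ± 1.96 standard errors. Levels were divided by the union of exon lengths. RefSeq promoter windows were read for 5 of the 8 regulators. The adjustments were tested on simulated data. Python 3.11.15, pandas 2.3.3, scipy 1.17.1 and matplotlib 3.10.9 were used.

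The regulators and all lists were chosen with earlier results of these data known. From each partner list, the called genes with the smallest adjusted p-values, at most 3 per direction, and the closest paralog of the regulator are named. Tcf12, Id4, Hes1, Akt1, Akt2, Cdkn1b, Cdkn2a, Cdkn2b, Rarg, Sesn1, Sesn3, Cited2, Irs2 and Txnip were named outside that rule, after their values were seen. So were the marker genes and the genes that overlap or adjoin a regulator. A few genes that the rule would name are not reported here. Without values per sample no likeness of pattern between genes was computed.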

Additional observations from a re-analysis of the deposited data

How the results depend on the processing

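The call of each of the 7 regulators was recomputed under 6 alternatives, and 41 of 42 calls were kept. Some of these outcomes were fixed in advance. An adjusted p under 0.1 cannot drop a called gene, and a mean count of at least 100 drops none, as all 7 exceed it. Stricter settings cannot add Sall4. The exception was Bmi1, whose log2 fold change of -0.79 is under the size required when a 2-fold change is asked for, so that 5 regulators were called lower. Benjamini-Yekutieli adjustment left Bmi1 an adjusted p of 0.0205 and the other 5 called genes at most 6.67e-05. Of all genes, 3146 were called lower and 3292 higher. An adjusted p under 0.01 left 2107 higher, Benjamini-Yekutieli adjustment left 1967 lower and 1666 higher, and a 2-fold change left 1256 lower and 1435 higher. In the partner lists and the further lists of regulators together, 52 genes were lower and 30 higher, and 21 and 13 with a 2-fold change. Of 108 counts for single lists, 83 stayed within 1.5 times. These alternatives change the threshold and not the fit. The table holds no values per sample, so leaving out a library was not run. No paired analysis was possible because the authors' table gives the comparison alone and no value for the cultures RP7, RP5 and WT1.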
